A study of Mus musculus with 36 samples.

Results

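Transcripts at a reduced level in blood stem cells and progenitors without Tet2 were followed across every RNA library of the study. They are 5 rows of the deposited transcript count table, which holds 138835 rows, listed by identifier: ENSMUST00000161230.2, ENSMUST00000024932.11, ENSMUST00000094028.9, ENSMUST00000106505.7 and ENSMUST00000107545.8. The 5 were chosen by their counts, which were lower in Tet2KO than in Control cells both in hematopoietic stem cells (HSCs) and in restricted progenitors (RPs). The values of those 2 contrasts are therefore given below as a description with no test. Dnmt3aKO libraries were not among the groups that the choice compared, and their difference from Control HSCs was tested. HSCs and RPs of the same genotype were also compared, but in libraries that the choice used: rows picked as high in both Control groups and low in both Tet2KO groups are drawn towards small differences between the cell types.

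All mice were C57BL/6, aged 8 weeks, and carried Cre recombinase driven by Vav, which is active throughout blood formation. Control mice kept both genes (Dnmt3a+/+ and Tet2+/+), Dnmt3aKO mice carried floxed Dnmt3a and Tet2KO mice were Tet2fl/fl. For Dnmt3a the labels read "fl/fl or +", so the second allele is not certain from them. HSCs were sorted as Lin-, cKit+, Sca1+, CD150+ and CD48- cells, and RPs as Lin-, cKit+, Sca1+, CD150- and CD48+ cells, each library from a pool of male and female mice. HSC libraries numbered 3 for Control, 3 for Dnmt3aKO and 4 for Tet2KO mice. RP libraries numbered 4 for Control and 4 for Tet2KO mice, and no RNA library of Dnmt3aKO RPs was analysed here.

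DNMT3A attaches methyl groups to cytosine in DNA, and TET2 oxidises them, a step on the way to their removal. Both genes are among those most often mutated in clonal blood disorders, and loss of either favours the self-renewal of stem cells in mice. HSCs sit at the top of the blood lineages, and RPs are cells further along that still divide but have lost long-term self-renewal. An identifier beginning with ENSMUST names 1 transcript model of a mouse gene, with its version after the point. The sources used here do not pair these identifiers with genes, so the functions of the 5 transcripts, their positions and their sequences are not given, and neither Tet2 nor Dnmt3a was checked as a test of the genotype labels.

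The 18 libraries held 3721009 to 9366421 counts. Levels are counts per 1000000 (CPM) of a library total scaled with TMM factors. They are not divided by transcript length, so the levels of different transcripts are not set against each other. At a common depth of 3721009 counts, the 3 HSC libraries numbered 4, one of each genotype, held 25496 to 33540 transcripts, the other 7 HSC libraries 33584 to 44049 and the 8 RP libraries 39880 to 44910. The first 2 ranges nearly meet, with Control HSC replicate 2 at 33584. Because each numbered-4 library held the fewest of its group, the remaining shares and the Dnmt3aKO values are also given without these 3. RP libraries carry the letters a to d, which pair with nothing. In sorted bulk samples, fewer cells that use a transcript and less of it per cell cannot be told apart.

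All 5 transcripts were among the 26820 that passed the filter on low counts, and all were far above that filter in Control cells, with 174 to 5125 counts in each Control HSC library and 240 to 7550 in each Control RP library. In the 8 Tet2KO libraries they kept 6 to 2680 counts. Of all tested transcripts, 17 (0.0634%) were called lower in Tet2KO HSCs and 11 (0.0410%) in Tet2KO RPs by edgeR's quasi-likelihood test at an adjusted p of 0.05. Called lower in both were 9 (0.0336%), of which the 5 transcripts make up 5, a count that the choice of the rows fixes.

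**Figure D1:**
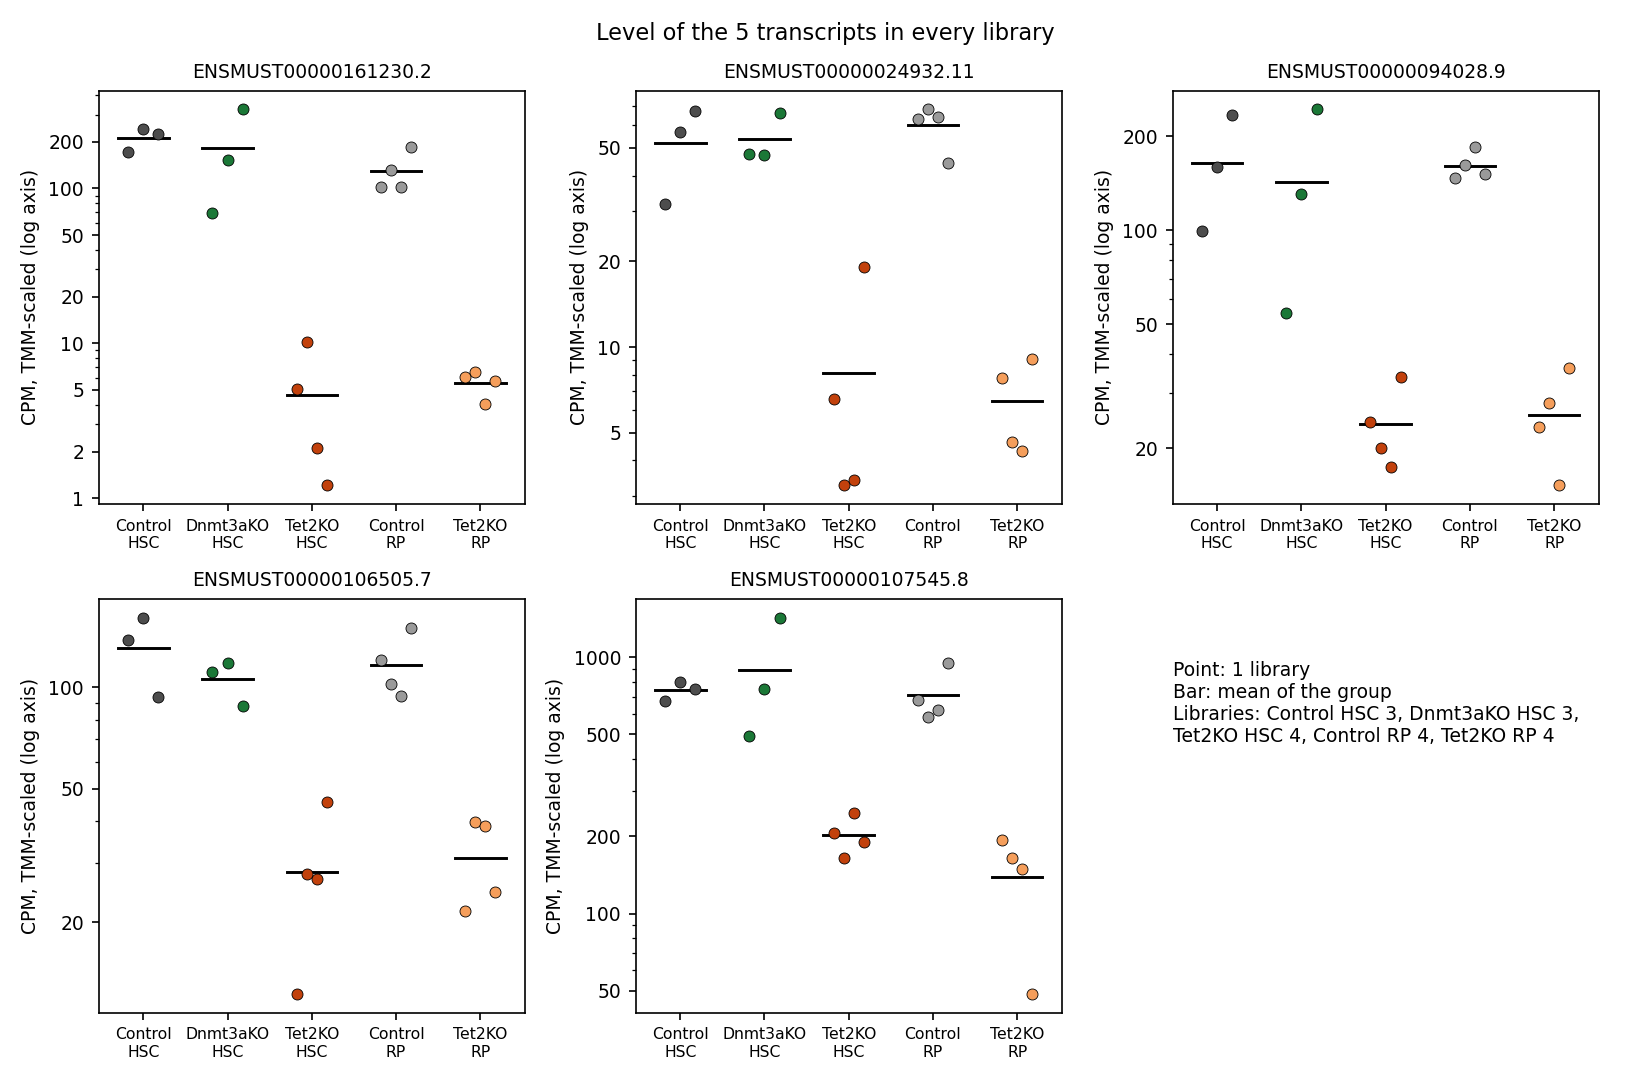
Level of each transcript in CPM (log axis) in every library of the 5 groups, with 1 point per library and a bar at the group mean. In every panel the 4 Tet2KO HSC and 4 Tet2KO RP points lie below all Control and Dnmt3aKO points.

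ENSMUST00000161230.2 was the transcript of which the least remained. In Control HSCs it was at 172, 241 and 226 CPM in replicates 2, 3 and 4, and in Tet2KO HSCs at 5.04, 10.2, 2.12 and 1.21 CPM in replicates 1 to 4. The groups did not overlap, and the lowest Control HSC library was 16.9-fold above the highest Tet2KO HSC library. In Control RPs it was at 102, 132, 103 and 186 CPM in libraries a to d, and in Tet2KO RPs at 6.02, 6.52, 4.08 and 5.69 CPM. The 4 Tet2KO RP libraries lay close together, whereas the 4 Tet2KO HSC libraries spanned 8.41-fold. The lowest of these, replicate 4, rested on 6 counts, which gives a 95% Poisson interval of 0.444 to 2.63 CPM (exact, covering counting error only), below the 8.11 to 12.6 CPM of replicate 2 with 84 counts. The mean share of the Control level that remained was 2.18% ± 1.89 (SD, n = 4) in Tet2KO HSCs and 4.28% ± 0.808 (n = 4) in Tet2KO RPs. The fitted log2 fold changes were -5.50 (SE 0.58) and -4.54 (SE 0.54). Without Tet2KO HSC replicate 2 the share in HSCs was 1.31%, and without the 3 numbered-4 HSC libraries it was 2.76%.

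ENSMUST00000024932.11 kept a larger and more uneven share. It was at 31.9, 56.8 and 67.6 CPM in Control HSC replicates 2, 3 and 4 and at 6.55, 3.27, 3.41 and 19.1 CPM in Tet2KO HSC replicates 1 to 4. The groups did not overlap, but Tet2KO HSC replicate 4 stood at 36.7% of the Control mean, against 6.28% to 12.6% in the other 3. In Control RPs the levels were 63.2, 68.3, 64.3 and 44.4 CPM in libraries a to d, and in Tet2KO RPs 7.81, 4.66, 4.31 and 9.10 CPM. In RPs the lowest Control library was 4.88-fold above the highest Tet2KO library, compared with 1.67-fold in HSCs. The share that remained was 15.5% ± 14.4 (SD, n = 4) in HSCs and 10.8% ± 3.92 (n = 4) in RPs, with log2 fold changes of -2.71 (SE 0.49) and -3.20 (SE 0.49). Without Tet2KO HSC replicate 4 the share in HSCs was 8.47%, and without all 3 numbered-4 HSC libraries it was 9.87%.

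ENSMUST00000094028.9 kept nearly the same share in both cell types. It was at 99.6, 159 and 234 CPM in Control HSC replicates 2, 3 and 4 and at 24.4, 19.97, 17.4 and 33.8 CPM in Tet2KO HSC replicates 1 to 4. Control RPs held 147, 162, 184 and 152 CPM in libraries a to d and Tet2KO RPs 23.4, 27.95, 15.2 and 36.1 CPM. Neither pair of groups overlapped, with the lowest Control library 2.94-fold above the highest Tet2KO library in HSCs and 4.07-fold above it in RPs. The share that remained was 14.6% ± 4.40 (SD, n = 4) in HSCs and 15.9% ± 5.41 (n = 4) in RPs. The log2 fold changes were -2.78 (SE 0.41) and -2.65 (SE 0.39). Without the 3 numbered-4 libraries the share in HSCs was 15.7%.

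ENSMUST00000106505.7 was at 138, 161 and 93.5 CPM in Control HSC replicates 2, 3 and 4 and at 12.3, 27.8, 27.0 and 45.7 CPM in Tet2KO HSC replicates 1 to 4. Its Control RP libraries a to d held 121, 103, 94.1 and 150 CPM and its Tet2KO RP libraries 21.6, 39.9, 38.6 and 24.7 CPM. The levels of the 2 genotypes stayed apart in both cell types, by 2.04-fold in HSCs and 2.36-fold in RPs between the nearest libraries. The nearest libraries in HSCs were both numbered 4, the lowest of the Control HSCs and the highest of the Tet2KO HSCs. The share that remained was 21.5% ± 10.5 (SD, n = 4) in HSCs and 26.7% ± 8.02 (n = 4) in RPs, with log2 fold changes of -2.22 (SE 0.35) and -1.91 (SE 0.33). Without the 3 numbered-4 libraries the share in HSCs was 14.7%.

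ENSMUST00000107545.8 kept the largest share in HSCs. It was at 673, 802 and 755 CPM in Control HSC replicates 2, 3 and 4, the narrowest spread of the 5 transcripts in that group, and at 207, 165, 247 and 191 CPM in Tet2KO HSC replicates 1 to 4. Control RPs held 684, 585, 622 and 954 CPM in libraries a to d, and Tet2KO RPs 193, 164, 149 and 48.6 CPM. Tet2KO RP library d was the lowest, at 6.83% of the Control mean, against 20.9% to 27.2% in the other 3. The nearest Control and Tet2KO libraries differed 2.73-fold in HSCs and 3.02-fold in RPs. The share that remained was 27.2% ± 4.64 (SD, n = 4) in HSCs and 19.5% ± 8.84 (n = 4) in RPs, with log2 fold changes of -1.88 (SE 0.37) and -2.36 (SE 0.36). The share in HSCs was 27.6% without the 3 numbered-4 libraries.

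**Figure D2:**
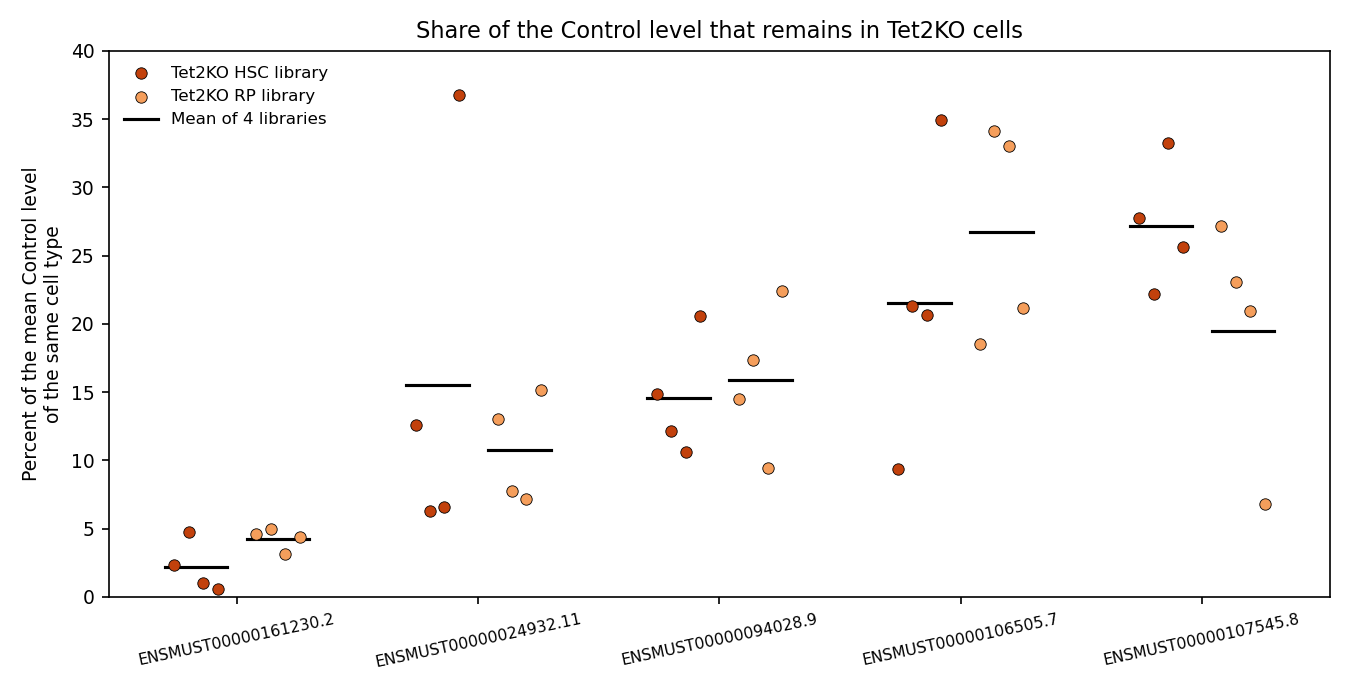
Level in each Tet2KO library in percent of the mean Control level of the same cell type (HSC dark, RP light), with a bar at the mean of 4 libraries. ENSMUST00000161230.2 stays at or below 5.00% in all 8 Tet2KO libraries, and no point of the other 4 transcripts lies below 6.28%.

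Set side by side, the shares fell into a low position held by ENSMUST00000161230.2 and an overlapping range held by the other 4. In HSCs the order of the mean share, from low to high, was ENSMUST00000161230.2, ENSMUST00000094028.9, ENSMUST00000024932.11, ENSMUST00000106505.7 and ENSMUST00000107545.8. In RPs it was ENSMUST00000161230.2, ENSMUST00000024932.11, ENSMUST00000094028.9, ENSMUST00000107545.8 and ENSMUST00000106505.7. From the second position on, neighbours in each order had overlapping library values. The order of ENSMUST00000094028.9 and ENSMUST00000024932.11 in HSCs rested on libraries numbered 4: without Tet2KO HSC replicate 4, ENSMUST00000024932.11 kept 8.47% and ENSMUST00000094028.9 12.5%, and without Control HSC replicate 4 they kept 18.2% and 18.5%. Without all 3 numbered-4 libraries, ENSMUST00000106505.7 (14.7%) also came below ENSMUST00000094028.9 (15.7%). Within the Tet2KO groups no single library was low or high for all 5: Tet2KO HSC replicate 4 was the highest of its group for ENSMUST00000024932.11, ENSMUST00000094028.9 and ENSMUST00000106505.7 and the lowest for ENSMUST00000161230.2, and Tet2KO RP library d was the highest for ENSMUST00000024932.11 and ENSMUST00000094028.9 and the lowest for ENSMUST00000107545.8.

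The sizes of the reduction in the 2 cell types come from separate libraries and were compared as a description, since both chose the transcripts. The log2 fold change in RPs minus that in HSCs was 0.96 (SE 0.71) for ENSMUST00000161230.2, -0.49 (SE 0.67) for ENSMUST00000024932.11, 0.14 (SE 0.55) for ENSMUST00000094028.9, 0.31 (SE 0.47) for ENSMUST00000106505.7 and -0.48 (SE 0.50) for ENSMUST00000107545.8. Without Tet2KO HSC replicate 4 the value for ENSMUST00000024932.11 changed sign, to 0.37 (SE 0.50). Without Tet2KO HSC replicate 2 that for ENSMUST00000161230.2 was 1.71 (SE 0.65), and without the 3 numbered-4 libraries that for ENSMUST00000106505.7 was 0.86 (SE 0.44).

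**Figure D3:**
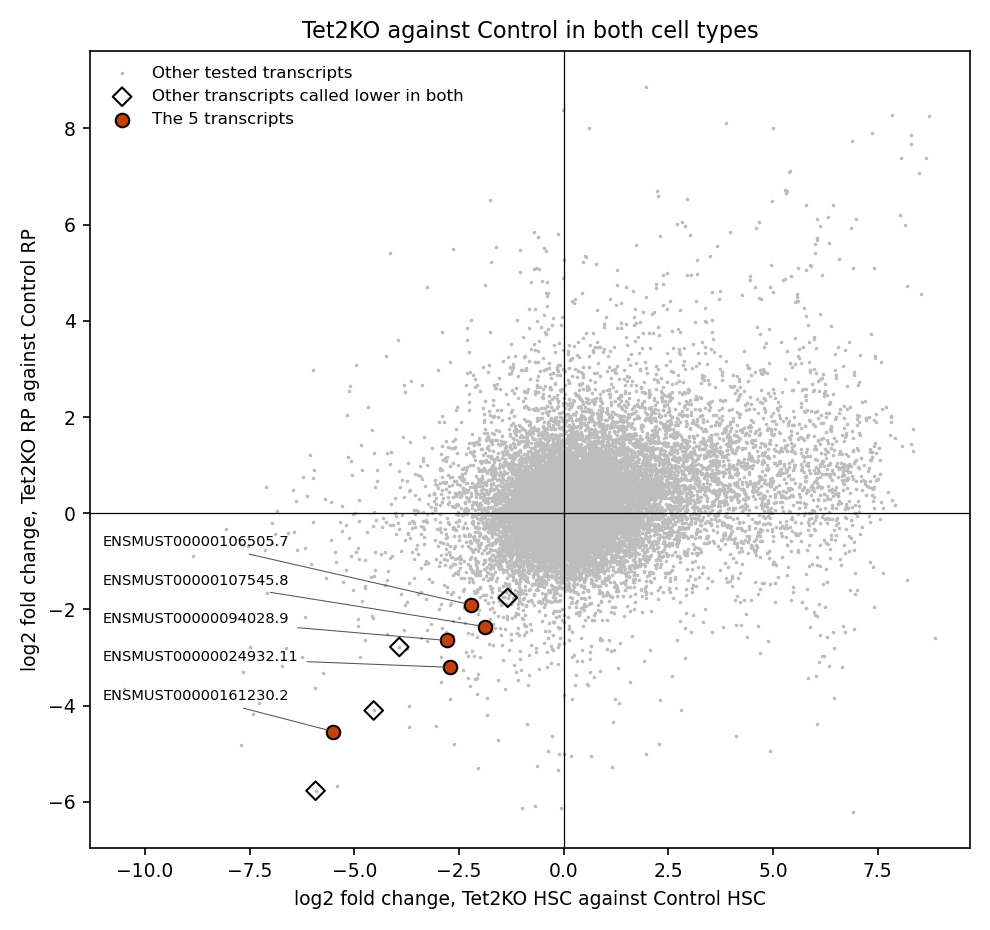
Log2 fold change of each of the 26820 tested transcripts in Tet2KO against Control HSCs (horizontal) and in Tet2KO against Control RPs (vertical). The 5 transcripts (filled) lie between -5.50 and -1.88 in HSCs and between -4.54 and -1.91 in RPs, and the open diamonds mark the 4 other transcripts called lower in both.

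Every Tet2KO library lay below every Control library of its cell type for all 5 transcripts, a separation shown by 2.69% of tested transcripts in HSCs, 1.92% in RPs and 0.209% in both. The median log2 fold change of the 5 was -2.71 in HSCs and -2.65 in RPs, where the medians of all tested transcripts were 0.10 and 0.03. These figures restate the choice of the rows. How many of the 5 were called depended on the fit, which describes the choice and is no test of it. In HSCs it was 3, of 20 transcripts called in either direction, in a fit of only Control and Tet2KO HSCs. With the HSC libraries alone it was 1 of 14, and 0 of 14 with the replicate number as a further term. With 1 library left out it was 3 or 4, of 17 to 106 called. In RPs it was 5 of 86 in the fit of only the RP libraries. ENSMUST00000106505.7 was not called in RPs without Control RP library d, Tet2KO RP library a or Tet2KO RP library d. Fold changes in HSCs stayed between -6.25 and -1.79 in every setting run.

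Outside the list, 4 further transcripts were called lower in both cell types. The one nearest to the 5 by its larger adjusted p was ENSMUST00000195577.1, at 56.1 ± 24.99 CPM (SD, n = 3) in Control HSCs, 3.72 ± 2.28 CPM (n = 4) in Tet2KO HSCs, 22.8 ± 6.90 CPM (n = 4) in Control RPs and 3.33 ± 1.57 CPM (n = 4) in Tet2KO RPs. The shares it kept, 6.63% in HSCs and 14.6% in RPs, lie inside the range of the 5. In Dnmt3aKO HSCs it was at 21.8 ± 7.26 CPM (n = 3), 38.9% of the Control HSC mean, and its distance there from the 5 was not tested. The other 3 were ENSMUST00000029722.6, ENSMUST00000143203.7 and ENSMUST00000197323.1. The last of them, named after its values were seen, was the scarcest in reads, at 24.4 ± 6.27 CPM (n = 3) in Control HSCs and 1.03 ± 0.747 CPM (n = 4) in Tet2KO HSCs, or 4.21%, and it kept 5.61% in Tet2KO RPs.

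The comparison of Dnmt3aKO with Control HSCs asks whether the 5 transcripts are also reduced when the other regulator of DNA methylation is lost. None of the 5 was called by edgeR's quasi-likelihood test, over a table in which 4 transcripts (0.0149%) were called in either direction. For the 5, 0 had an unadjusted p under 0.05 (edgeR), where 2079 of the 26820 tested transcripts did. DESeq2 called 0 of the 5 and 174 transcripts in all. With so few called in the table, 0 of 5 does not set the 5 apart. Their mean levels were between 80.6% and 120% of the Control HSC mean. This comparison shares its Control HSC libraries with the contrast that chose the transcripts, and Control levels that are high by chance would have helped a transcript onto the list.

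Library by library, ENSMUST00000161230.2 was at 69.4, 152 and 324 CPM in Dnmt3aKO HSC replicates 1, 2 and 4, so that none of the 3 lay within the Control HSC range of 172 to 241 CPM, 2 being below it and 1 above. The log2 fold change was -0.23 (95% interval -1.33 to 0.88, adjusted p = 0.987, edgeR). ENSMUST00000094028.9 spread in the same order, at 54.1, 131 and 244 CPM in replicates 1, 2 and 4, with a log2 fold change of -0.20 (95% interval -1.09 to 0.69, adjusted p = 0.984, edgeR). ENSMUST00000107545.8 was at 493, 751 and 1426 CPM, again lowest in replicate 1 and highest in replicate 4, with a log2 fold change of 0.26 (95% interval -0.56 to 1.08, adjusted p = 0.967, edgeR). ENSMUST00000094028.9 and ENSMUST00000107545.8 each had 1 Dnmt3aKO library below the Control HSC range, 1 within it and 1 above. For all 3 transcripts of this paragraph the highest Dnmt3aKO library exceeded the lowest by 2.89-fold to 4.68-fold.

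The other 2 transcripts were more even among the Dnmt3aKO libraries. ENSMUST00000024932.11 was at 47.7, 47.4 and 66.3 CPM in replicates 1, 2 and 4, all inside the Control HSC range, with a log2 fold change of 0.05 (95% interval -1.01 to 1.11, adjusted p = 1, edgeR). ENSMUST00000106505.7 was at 111, 118 and 87.9 CPM, with replicate 4 just below the lowest Control HSC library, and its log2 fold change was -0.31 (95% interval -1.08 to 0.45, adjusted p = 0.945, edgeR). For none of the 5 did the Dnmt3aKO and Control HSC libraries separate, where 4.09% of tested transcripts had every Dnmt3aKO library below every Control library and 3.88% had every one above.

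The intervals in Dnmt3aKO HSCs reach from -1.33 to 1.11 on the log2 scale, so the data do not show that the levels are equal. Their lower ends lie above the fitted log2 fold change of the same transcript in Tet2KO HSCs for each of the 5. Those Tet2KO values chose the rows, have SEs of 0.35 to 0.58 and share the Control HSC libraries, so this is only a description. All Dnmt3aKO libraries were above all Tet2KO HSC libraries for each transcript, as for 2.79% of tested transcripts, but the low Tet2KO values chose the rows and the difference was not tested. The lowest Dnmt3aKO library exceeded the highest Tet2KO HSC library by 6.82-fold for ENSMUST00000161230.2 and by 1.60-fold for ENSMUST00000094028.9, with the other 3 between.

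The Dnmt3aKO values depended on single libraries. Replicate 4, with 25496 transcripts at the common depth the fewest of all libraries, was the highest Dnmt3aKO library for 4 of the 5 transcripts and the lowest for ENSMUST00000106505.7, and the part of this difference between libraries in the result was not tested beyond leaving it out. Without it the log2 fold change was -0.98 for ENSMUST00000161230.2 (adjusted p = 0.679, edgeR), -0.86 for ENSMUST00000094028.9 (adjusted p = 0.597, edgeR) and -0.29 for ENSMUST00000107545.8 (adjusted p = 0.945, edgeR). Without replicate 1 the same 3 values were 0.16, 0.19 and 0.55. In a fit without the 3 numbered-4 libraries they were -0.92, -0.51 and -0.27, and none of the 5 transcripts was called in that fit or in any other setting.

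**Figure D4:**
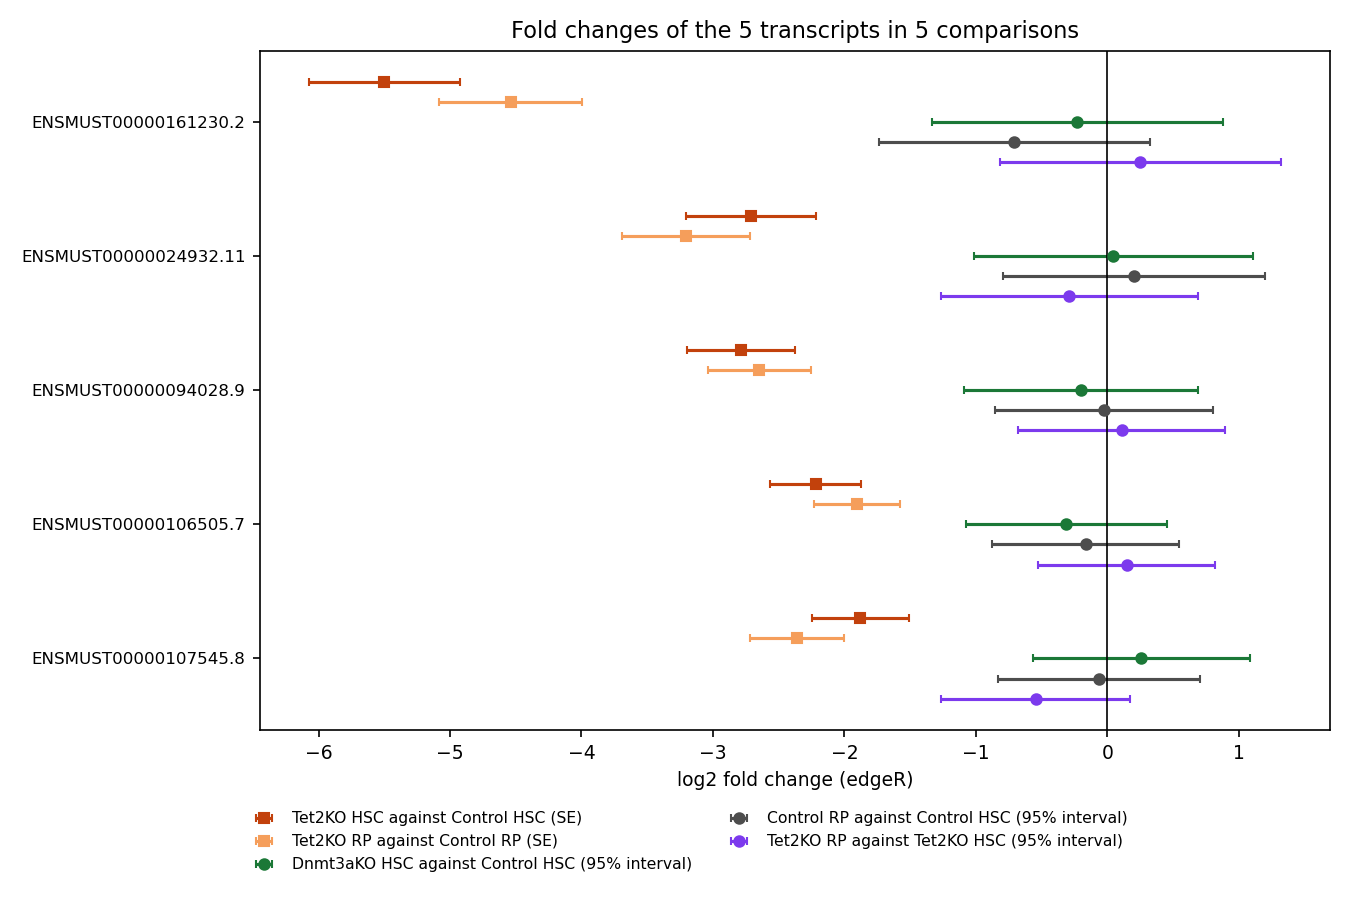
Log2 fold change of the 5 transcripts in 5 comparisons by edgeR. Squares with SE are the 2 contrasts that chose the transcripts, all at or below -1.88. Circles with 95% intervals are the 3 other comparisons, all of whose intervals include 0. Those between RPs and HSCs use libraries that the choice used, which draws them towards small differences.

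Control RPs were compared with Control HSCs, with the choice of rows high in both limiting what the comparison can show. None was called, with 1.90% of tested transcripts called in either direction. At an unadjusted p under 0.05 (edgeR) were 0 of the 5 and 3966 of the 26820 tested transcripts. DESeq2 called 0 of the 5 and 1500 transcripts in all. The largest difference was that of ENSMUST00000161230.2, with means of 130 CPM (SD 39.4, n = 4) in Control RPs and 213 CPM (SD 36.3, n = 3) in Control HSCs, a log2 fold change of -0.71 (95% interval -1.73 to 0.32, adjusted p = 0.56, edgeR). Control RP library d, at 186 CPM, lay inside the Control HSC range and the other 3 below it. The other 4 transcripts had log2 fold changes between -0.16 and 0.20 with adjusted p of at least 0.895 (edgeR). For 0 of the 5 did every Control RP library lie below every Control HSC library, as it did for 6.00% of tested transcripts.

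Tet2KO RPs and Tet2KO HSCs were compared in the same way, and again none of the 5 was called, where 1.81% of tested transcripts were. Both groups are low because the rows were chosen as low in both, so the absence of a call rests on values that the choice used. The count at an unadjusted p under 0.05 (edgeR) was 0 of 5, against 2774 of the 26820 tested transcripts. At an adjusted p of 0.05, DESeq2 called 0 of the 5 and 1069 transcripts in all. ENSMUST00000107545.8 differed most, with means of 139 CPM (SD 62.9, n = 4) in Tet2KO RPs and 202 CPM (SD 34.5, n = 4) in Tet2KO HSCs, with a log2 fold change of -0.54 (95% interval -1.26 to 0.17, adjusted p = 0.701, edgeR). Leaving out Tet2KO RP library d reduced it to -0.26. For ENSMUST00000161230.2 the value was 0.25 (95% interval -0.82 to 1.32, adjusted p = 0.961, edgeR), and for ENSMUST00000024932.11 it was -0.29 (95% interval -1.26 to 0.69, adjusted p = 0.949, edgeR), turning to 0.57 without Tet2KO HSC replicate 4.

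Across the 5 groups the order of the mean levels had a single wide step, which the choice of the rows fixed between Control and Tet2KO cells. For each transcript the Control HSC, Dnmt3aKO HSC and Control RP means came first, in an order that differed between transcripts and with overlapping libraries between neighbours, and the 2 Tet2KO groups came last, also overlapping with each other. Over the 18 libraries, log2 CPM (prior count 2) of the 10 pairs of the 5 transcripts had Pearson correlations between 0.823 and 0.947. These describe the step between Tet2KO and the other groups, which all 5 share by choice, and the libraries share their depth and scaling.

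By the same measure, the transcript outside the list most like each of the 5 was found among all those tested. ENSMUST00000029722.6 was the nearest for both ENSMUST00000161230.2 (Pearson r = 0.949 over 18 libraries) and ENSMUST00000024932.11 (r = 0.935). It kept 1.65% of its Control level in Tet2KO HSCs and 1.83% in Tet2KO RPs, and was at 97.0% of the Control HSC mean in Dnmt3aKO HSCs. ENSMUST00000195577.1, described above, was nearest to ENSMUST00000106505.7 (r = 0.953). ENSMUST00000143203.7 was nearest to ENSMUST00000107545.8 (r = 0.922) and kept 39.6% in Tet2KO HSCs and 29.5% in Tet2KO RPs. These 3 are among the 4 further transcripts called lower in both cell types. The 18 libraries include those that the choice used, so the search favours transcripts that are low in both Tet2KO groups.

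ENSMUST00000015858.11, the nearest to ENSMUST00000094028.9 (r = 0.922), was not called lower in both. It was at 640 ± 110 CPM (SD, n = 3) in Control HSCs and 325 ± 60.5 CPM (n = 4) in Tet2KO HSCs, 50.8% of the Control mean, and at 574 ± 34.8 CPM (n = 4) in Control RPs and 369 ± 78.4 CPM (n = 4) in Tet2KO RPs, 64.3%. The same groups were low, by a smaller factor than for ENSMUST00000094028.9.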

How the data were processed

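The authors deposited raw read counts per Ensembl transcript, and the table's name, per the file headers and name, points to exon counting with GENCODE vM20. Tools named in the submitters' processing notes include HTSeq 0.8.0, featureCounts, Subread, STAR 2.0.4 and edgeR 3.9, with the build mm10. The sources used here do not say which of them counted, whether strand was used or where a read on a shared exon went, so counts of overlapping transcripts and near-identical copies are uncertain. Of 36 columns, 18 matched samples and 18 were not used. RP column numbers differ from the sample titles, so those columns were assigned to their group only. The 18 ATAC-seq samples were not analysed here.

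Transcripts were kept with filterByExpr (minimum count 10, minimum total 15), leaving 26820 with 98.92% of counts. All 18 libraries entered 1 edgeR 4.0.16 quasi-likelihood fit (R 4.3.3, TMM scaling, group as the only term), with Benjamini-Hochberg adjustment over all tested transcripts at 0.05. Each SE is the size of the log2 fold change divided by the square root of the test's F statistic, so it is approximate. The 95% intervals use this SE and the fit's degrees of freedom. DESeq2 1.42.0 was an alternative. Every pair of libraries of 1 group differed beyond sampling noise (the lowest chi-square was 9.07 per degree of freedom), and no library was merged with another. The labels call replicates biological pools but give pool sizes that differ, so p-values measure the spread between pools. Gene names, marker lists and sequences were not used, since the sources used here do not pair them with these identifiers. The named transcripts are the 5 listed, for each the most correlated transcript outside the list, and the transcript called lower in both cell types that lay nearest to the 5 by adjusted p. ENSMUST00000197323.1 was named outside this rule. Members, lists and tests were chosen with earlier results of these data known.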

Additional observations from a re-analysis of the deposited data

How the results depend on the processing

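Transcripts called numbered 4 in Dnmt3aKO against Control HSCs, 509 in Control RPs against Control HSCs, 485 in Tet2KO RPs against Tet2KO HSCs, 53 in Tet2KO against Control HSCs and 36 in Tet2KO against Control RPs. In that order, the counts were 291, 1355, 951, 1001 and 241 with no filter on low counts, and 174, 1500, 1069, 673 and 117 with DESeq2. With 1 library left out at a time they ranged from 1 to 6, 280 to 492, 297 to 409, 17 to 106 and 27 to 44. The lowest counts of the second and the fourth came without Control HSC replicate 2. In fits of only the 2 groups compared, 0 were called for Dnmt3aKO, 20 for Tet2KO HSCs and 86 for Tet2KO RPs. HSC libraries alone gave 0 for Dnmt3aKO and 14 for Tet2KO. Without the 3 HSC libraries numbered 4, 773 were called in Control RPs against Control HSCs and 117 in Tet2KO HSCs. The cause of these differences was not tested.

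The 2 contrasts that chose the 5 transcripts carry no test, and how many of the 5 were called describes the choice. In Tet2KO HSCs it was 3 with only the 2 groups and 1 with HSC libraries alone. It was 0 with a replicate block added to these, and 3 to 4 with 1 library left out. In Tet2KO RPs it was 4 to 5 with 1 library left out and 5 otherwise. The 70 fold changes of the 5 under alternatives in HSCs and the 60 in RPs all kept their direction. In the other 3 comparisons 0 of the 5 were called under any alternative run. Of their fold changes, 8 of 65 changed sign in Dnmt3aKO HSCs, 7 of 60 in Control RPs against Control HSCs and 8 of 65 in Tet2KO RPs against Tet2KO HSCs. The ranges below are log2 fold changes with 1 library left out. In Dnmt3aKO HSCs they were -0.21 to 0.28 for ENSMUST00000024932.11, -0.86 to 0.19 for ENSMUST00000094028.9, -0.29 to 0.55 for ENSMUST00000107545.8 and -0.98 to 0.16 for ENSMUST00000161230.2. In Control RPs against Control HSCs they were -0.051 to 0.44 for ENSMUST00000024932.11, -0.29 to 0.32 for ENSMUST00000094028.9, -0.36 to 0.012 for ENSMUST00000106505.7 and -0.24 to 0.019 for ENSMUST00000107545.8. In Tet2KO RPs against Tet2KO HSCs they were -0.56 to 0.57 for ENSMUST00000024932.11, -0.10 to 0.32 for ENSMUST00000094028.9, -0.10 to 0.47 for ENSMUST00000106505.7 and -0.038 to 1.00 for ENSMUST00000161230.2. The Tet2KO fold change in RPs minus that in HSCs, whose alternatives were added after seeing the data, ranged from -0.76 to 0.37 for ENSMUST00000024932.11 and from 0.67 to 1.71 for ENSMUST00000161230.2. Without the 3 HSC libraries numbered 4, that difference was 0.16 for ENSMUST00000024932.11 and 0.86 for ENSMUST00000106505.7. In the same setting the fold change was -0.27 for ENSMUST00000107545.8 in Dnmt3aKO HSCs, 0.27 for ENSMUST00000094028.9 in Control RPs against Control HSCs, and 0.55 for ENSMUST00000024932.11 and -0.058 for ENSMUST00000161230.2 in Tet2KO RPs against Tet2KO HSCs.

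Same-numbered HSC libraries of 2 genotypes correlated at 0.0389 to 0.251 in their deviations from the group means, and not every pair exceeded 0.1, so the numbers were not taken to pair the samples. The libraries numbered 4 correlated at 0.2 and 0.251 and also shared a low number of transcripts at the common depth. Own numbers were the best match for 2 and 4 but not 3 in Tet2KO HSCs, and for 4 but not 2 in Dnmt3aKO HSCs. With a replicate block, HSC libraries alone gave 0 called transcripts for Dnmt3aKO and 14 for Tet2KO, 0 of the 5 among them, and -0.0019 for ENSMUST00000024932.11 in Dnmt3aKO HSCs. Depth limits ENSMUST00000161230.2 most, at 6 to 84 counts in Tet2KO libraries.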
